A study of Homo sapiens with 4 samples.

Results

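The BCL2 family sets whether a cell commits to apoptosis through its mitochondria, and 10 of its genes are described here in human proximal tubular cells (HPTCs). They are the pro-survival genes BCL2, BCL2L1, BCL2A1 and MCL1, the effectors BAX and BAK1, and the BH3-only genes BID, BIK, PMAIP1 and BBC3. Members were taken as every probe of the array that is no control and carries 1 of these gene names, which gave 10 of 25992 gene names and 14 of 34127 probes. The rule itself used no measured value.

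Pro-survival members hold the effectors in check, the effectors form pores in the outer mitochondrial membrane, and BH3-only proteins tip the balance by binding pro-survival members or by activating the effectors directly. Release of cytochrome c through the pores starts the caspase cascade. In the proximal tubule this pathway is known for its part in acute tubular injury.

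Total RNA was measured on 4 one-colour arrays, 2 of them labelled HK-2 and 2 labelled RPTEC/TERT1. HK-2 is a proximal tubular line immortalised with papillomavirus genes, and RPTEC/TERT1 is a proximal tubular line that carries the telomerase gene TERT. All 4 cultures went without serum and supplements for 24 h before they received IL-1β at 10 ng/mL with empagliflozin (Empa), an inhibitor of the glucose transporter SGLT2, at 500 nM for 24 h. The replicates are described as biological duplicates. Arrays of unstimulated cells, of IL-1β alone and of Empa alone were not analysed here, so no value below is an effect of IL-1β or of Empa, and the contrast the labels give is HK-2 against RPTEC/TERT1. Each value is a level, the log2 ratio of the processed spot signal to the 75th percentile on that array, so that 0 is the brightness of that percentile. Levels are compared between arrays for the same probe or gene and not between genes. The exception is the sums over marker lists and the shares in them, which take no account of how probes differ.

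The arrays did not group by their labels. Across all genes tested, HK-2 replicate 1 correlated at 0.984 with RPTEC/TERT1 replicate 2 and at 0.848 with HK-2 replicate 2, and HK-2 replicate 2 correlated at 0.976 with RPTEC/TERT1 replicate 1 (Pearson, across genes, which are not independent replicates). Replicate 1 of both lines was scanned on another day than replicate 2, so this likeness crosses the scan days as well as the labels. Every difference between the labelled cell lines below is therefore given with the value of each array. Between 59.2% and 64.9% of spots per array were well above background, the 75th percentile lay between 393 and 748 units of signal, and the precision is limited by the number of arrays.

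Of 15 proximal tubule markers, 9 were well above background on at least 2 arrays and 5 on none, among them CUBN, HNF4A and VIL1. Of these 9, 3 had opposite replicate differences of at least 1 in the labelled lines, beside 23.8% of all genes. Of the 3, 2 were high in replicate 1 of HK-2 and replicate 2 of RPTEC/TERT1, beside 12.3% of all genes. The remaining 1 was high on the other arrays, beside 11.4%. For every gene the level is given for replicate 1 and then replicate 2 of each line. ANPEP, a brush border peptidase, read 0.49 and -5.37 in HK-2 and -5.37 and 0.47 in RPTEC/TERT1, where -5.37 is the floor set for dim spots. CDH6, a cadherin of the proximal tubule, ran the other way, at -3.26 and 0.27 in HK-2 and 0.86 and -3.49 in RPTEC/TERT1, and LRP2, the endocytic receptor megalin, stayed low at -3.34, -1.72, -2.77 and -3.06. The summed signal of the proximal tubule list was 2073%, 572%, 1004% and 1677% of the 75th percentile in this order of arrays, HK-2 first, of which the transcription factor gene PAX8 alone made up 84.3%, 53.5%, 68.6% and 78.8%. PAX8 itself read 4.13, 1.61, 2.79 and 3.73. The fibroblast list, 4 of 9 of whose genes were well above background on 2 or more arrays, summed to 54.9%, 201%, 155% and 58.3%. Its higher sums were carried by LUM, at -5.37, 0.23, -0.30 and -5.37, and DCN, at -5.37, -0.61, -0.87 and -5.27, both matrix proteoglycan genes, while the smooth muscle actin gene ACTA2 ran against them, at -1.56, -5.37, -5.37 and -1.39. The thick limb, distal tubule and collecting duct list had 2 of 9 such genes, the leukocyte list 4 of 6 and the endothelial list 1 of 5. The first of these lists summed to 99.7%, 34.0%, 36.6% and 127%. SLC12A1, at -0.51, -5.37, -5.37 and -0.10, made up 70.5%, 7.1%, 6.6% and 73.7% of that. In the leukocyte list CD68 alone made up 68.1%, 74.5%, 77.5% and 73.2% of the sum. The part of cell state or cell identity in the results below was not tested.

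Several members were read by more than 1 probe, and the results below turn on whether these agree. The first 30 of the 60 bases of the probes that matter most are printed in lower case, 5′ to 3′, as the array design gives them. They are the replicated probe of BCL2, the pairs for BCL2A1 and BAX, and the probes of BIK and BBC3, whose levels differed most between arrays after BCL2.
BCL2 A_23_P352266: tggctgatattctgcaacactgtacacata
BCL2A1 A_23_P152002: tgtaaccatatttgcatttgaaggtattct
BCL2A1 A_23_P321703: aggaaagatctgtgaaatgctcttctgtcc
BAX A_23_P208706: tgccttggactgtgtttttcctccataaat
BAX A_33_P3341144: ctgcctctggaattgctcaagttcattgat
BIK A_23_P404667: ttttcgttttttctaaaagatgaattccta
BBC3 A_23_P382775: agtctgggagtggggagggatggcccagcc

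Per the file headers, which give GRCh37 positions, this BCL2 probe lies at chr18:60790723-60790782 on the minus strand. The BCL2A1 probes lie at chr15:80263136-80263195 and chr15:80253220-80253252 on the minus strand, and the second of these places only 33 of the 60 bases, so its target is less certain. The BAX probes lie at chr19:49464904-49464963 and chr19:49464454-49464513 on the plus strand. The BIK probe lies at chr22:43525495-43525554 on the plus strand and the BBC3 probe at chr19:47724174-47724233 on the minus strand. Exon and intron annotation of that build was not used here.

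All 14 probes were well above background on all 4 arrays and none was saturated. No member passed the test between HK-2 and RPTEC/TERT1, limma's moderated test with Benjamini-Hochberg adjustment over the 16708 genes tested. The count was 0 of 10 members, beside 0 of all genes (0%), and at an unadjusted p under 0.05 it was 0 of 10 members beside 24 of all genes (0.144%). The lowest unadjusted p among the members was 0.447 in limma's test, for PMAIP1, which has 1 usable HK-2 array that is assumed to vary like the others. Among the members with 4 values the lowest was 0.561, for BCL2A1, and every adjusted p was 1. The median absolute difference between the cell lines was 0.17 over the members and 0.13 over all genes tested. A miss of the threshold in 2 against 2 arrays does not show that levels are alike, and the spread within a label was wide, with a median SD of 0.55 over the members. In bulk RNA, fewer cells that use a gene and less RNA per cell cannot be told apart.

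**Figure D1:**
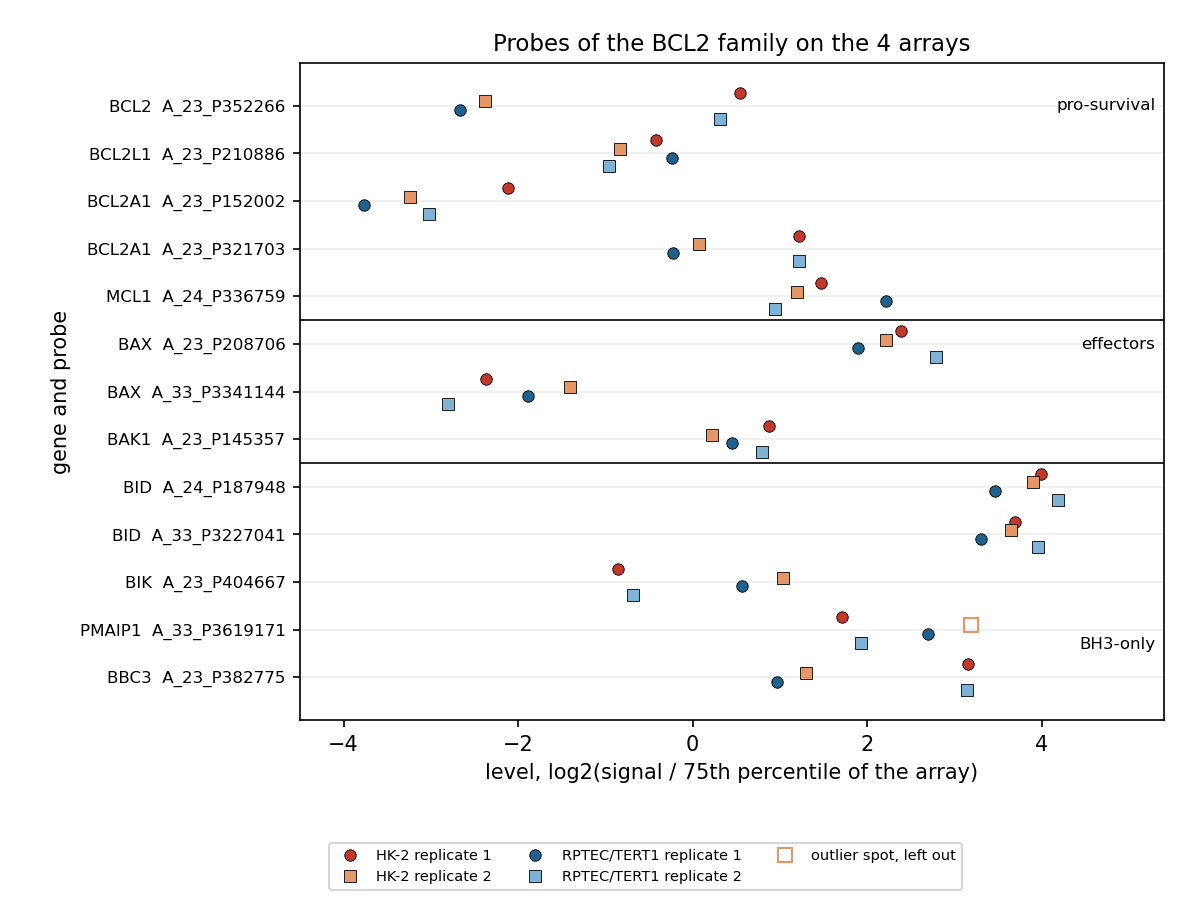
Level of 13 of the 14 probes on the 4 arrays, as log2 of signal over 75th percentile (x axis), with gene and probe on the y axis, colour for the labelled cell line and shape for the replicate number. The points of BCL2, BIK and BBC3 split into HK-2 replicate 1 with RPTEC/TERT1 replicate 2 to one side and the other 2 arrays on the other side, and the open square is the PMAIP1 spot left out as an outlier.

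BCL2, the founding pro-survival member, had the widest range over the arrays, 2.75 log2 units. Its probe A_23_P352266, present as 10 spots, read 0.54 and -2.38 in HK-2 and -2.67 and 0.32 in RPTEC/TERT1. Before scaling, its mean signals were 590, 149, 79.1 and 532 units in that order. Replicate 1 of HK-2 and replicate 2 of RPTEC/TERT1 were thus the high arrays, and the labels overlapped fully. The SD over its spots was between 0.06 and 0.13 on each array, far below the gap between the arrays. As a gene, the mean of its probes, BCL2 differed by 0.16 ± 1.32 (SE, n = 2 arrays per line) between HK-2 and RPTEC/TERT1 (limma adjusted p = 1). Within replicate 1 the HK-2 array was higher by 2.75, and within replicate 2 the difference was -2.43.

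BCL2A1, an NF-κB-induced pro-survival member, had the same high arrays in the mean of its probes, with a narrower range of 1.55. Its brighter probe, A_23_P321703, read 1.22 and 0.07 in HK-2 and -0.23 and 1.22 in RPTEC/TERT1. The dim probe, A_23_P152002, read -2.11, -3.24, -3.76 and -3.02, so that HK-2 replicate 1 stood above the other 3 arrays. On HK-2 replicate 1 and on RPTEC/TERT1 replicate 1 this dim probe, at 90.9 and 35.9 units, was below the brightest of 153 negative control spots, at 171 and 49.3 units. The gene differed by 0.43 ± 0.68 (SE, n = 2) between the labelled lines (limma adjusted p = 1), with 1.55 within replicate 1 and -0.69 within replicate 2.

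BCL2L1, which encodes the pro-survival BCL-XL and the shorter pro-apoptotic BCL-XS, ranged over 0.73 log2 units. Its probe, at chr20:30253324-30253383 on the minus strand of GRCh37 and present as 10 spots, read -0.42 and -0.83 in HK-2 and -0.23 and -0.96 in RPTEC/TERT1. Replicate 1 was the higher array of each labelled line, by 0.41 in HK-2 and 0.73 in RPTEC/TERT1. The SD over its spots was between 0.06 and 0.30 on each array, the widest on RPTEC/TERT1 replicate 1. The cell lines differed by -0.03 ± 0.51 (SE, n = 2). Which of these forms the probe read was not examined here.

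MCL1, a short-lived pro-survival member, was highest on RPTEC/TERT1 replicate 1, at 2.21, against 1.47 and 1.19 on the HK-2 arrays and 0.94 on RPTEC/TERT1 replicate 2. Its probe lies at chr1:150547622-150547681 on the minus strand. The HK-2 arrays fell inside the range of the RPTEC/TERT1 arrays, and the difference was -0.25 ± 0.61 (SE, n = 2). On this scale MCL1 shared neither the array split of BCL2 nor a split by label. With normexp background correction its replicate difference was -0.56 in HK-2 and 1.21 in RPTEC/TERT1, or -1.54 and 1.34 relative to the median shift of all genes, which are the high arrays of BIK.

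The BAX probes went opposite ways. A_23_P208706, present as 10 spots, read 2.38 and 2.22 in HK-2 and 1.89 and 2.79 in RPTEC/TERT1. A_33_P3341144 read -2.37, -1.41, -1.89 and -2.80. RPTEC/TERT1 replicate 2 was thus the highest array for the first probe and the lowest for the second, and neither probe separated the labelled lines. Their mean gave 0.0046, 0.41, -0.0013 and -0.0062, so that both HK-2 arrays lay above both RPTEC/TERT1 arrays, and BAX was the only member of the 9 with a value on every array whose labels did not overlap, beside 7.17% of all genes, 4.36% with both HK-2 arrays higher and 2.81% with both RPTEC/TERT1 arrays higher. That order came from averaging a pair that disagreed, and the difference of 0.21 ± 0.44 (SE, n = 2) did not pass (limma adjusted p = 1). The first probe alone gave -0.038. On HK-2 replicate 1 the dim probe, at 75.9 units, was also below the brightest negative control.

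BAK1, the other effector, ranged over 0.66. Its probe, at chr6:33540585-33540644 on the minus strand, read 0.87 and 0.22 in HK-2 and 0.45 and 0.79 in RPTEC/TERT1. Replicate 1 of HK-2 and replicate 2 of RPTEC/TERT1 were again the higher arrays, by less than 1 log2 unit. The difference between the lines was -0.07 ± 0.49 (SE, n = 2).

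BID, which carries the death receptor signal to mitochondria once caspase-8 has cut it, was read by a pair of neighbouring probes that agreed. They lie at chr22:18218182-18218241 and chr22:18218265-18218324 on the minus strand. A_24_P187948 read 3.99 and 3.90 in HK-2 and 3.47 and 4.18 in RPTEC/TERT1, and A_33_P3227041 read 3.69, 3.65, 3.30 and 3.96. Both HK-2 arrays lay between the RPTEC/TERT1 arrays for each probe. The gene differed by 0.08 ± 0.48 (SE, n = 2).

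BIK, a BH3-only gene whose protein sits at the endoplasmic reticulum, ran against BCL2. On this scale it was the only member to do so by at least 1 log2 unit in both labelled lines. BIK read -0.86 and 1.03 in HK-2 and 0.57 and -0.68 in RPTEC/TERT1. The dim BAX probe had replicate differences in the same direction, -0.97 in HK-2 and 0.91 in RPTEC/TERT1, while the brighter BAX probe gave 0.16 and -0.90. The 2 arrays on which BCL2 was low were those on which BIK was high. Before scaling the signals were 217, 1529, 723 and 267 units. The labelled lines differed by 0.14 ± 0.88 (SE, n = 2), from -1.43 within replicate 1 and 1.71 within replicate 2.

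BBC3 encodes PUMA, a p53-induced BH3-only protein that binds every main pro-survival member. It read 3.15 and 1.30 in HK-2 and 0.96 and 3.14 in RPTEC/TERT1. The high and low arrays on this scale were those of BCL2, so that a pro-survival and a pro-apoptotic gene were high on the same arrays. The labelled lines differed by 0.18 ± 1.06 (SE, n = 2), from 2.19 within replicate 1 and -1.84 within replicate 2.

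PMAIP1 encodes NOXA, a BH3-only protein that binds MCL1 and BCL2A1. Its spot, at chr18:57570691-57570750 on the plus strand, carried an outlier flag on the second HK-2 array, so HK-2 is represented by replicate 1 alone in the fit. The level was 1.71 in replicate 1 of HK-2 and 2.70 and 1.92 in RPTEC/TERT1, and the difference was -0.60 ± 0.69 (SE). The marked spot read 3.18, and with it kept the difference turned to 0.14, so that the direction rests on that spot. With it kept, replicate 1 minus replicate 2 was -1.47 in HK-2 and 0.77 in RPTEC/TERT1, the direction of BIK.

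**Figure D2:**
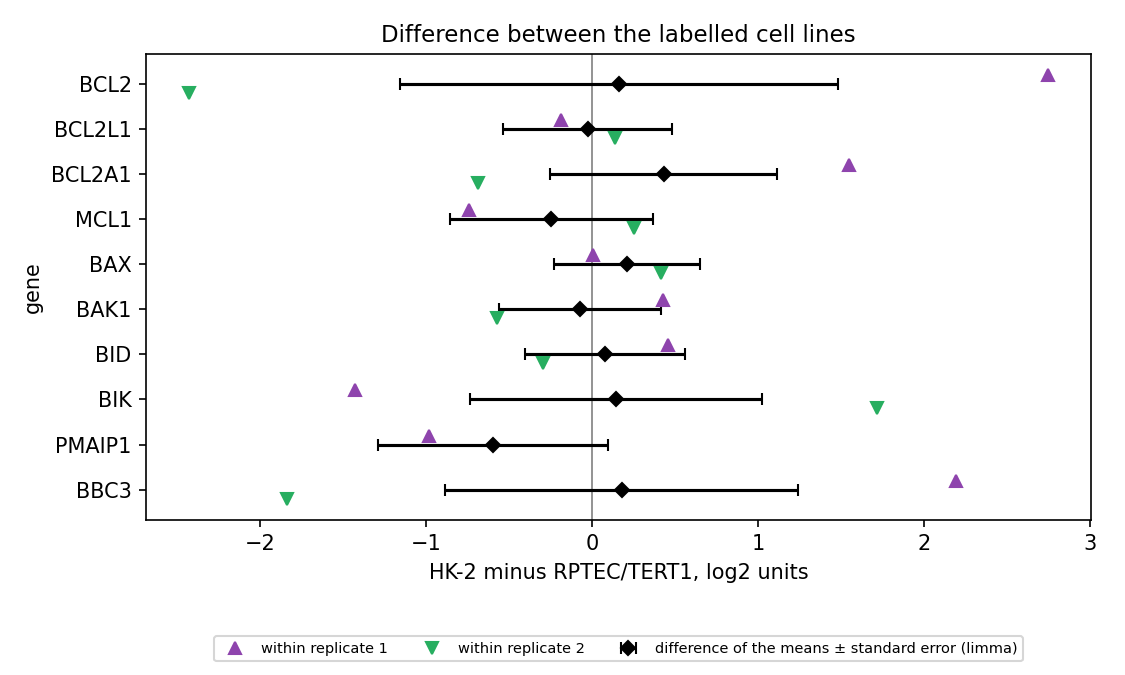
HK-2 minus RPTEC/TERT1 in log2 units (x axis) for each member (y axis), as the difference of the means with its standard error from limma (diamonds) and within replicate 1 and replicate 2 (triangles, no test; PMAIP1 has none in replicate 2). Every mean difference lies within its standard error of 0, while BCL2 spans 2.75 to -2.43 between the replicate numbers.

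The replicate difference can be set side by side in the labelled lines. BCL2 was higher in replicate 1 than in replicate 2 of HK-2 by 2.63 and gave -2.54 in RPTEC/TERT1. BBC3 gave 1.85 and -2.18, BCL2A1 1.14 and -1.10, and BIK -1.89 and 1.25. These 4 of the 9 members with a value on every array had replicate differences of opposite sign and of at least 1 in both labelled lines, beside 23.8% of all genes. Of them 3 were high in replicate 1 of HK-2 and replicate 2 of RPTEC/TERT1, beside 12.3% of genes, and 1 was high on the other 2 arrays, beside 11.4%. The split was thus also seen in these shares of all genes, and nothing particular to the members is drawn from it. An opposite sign of any size was seen in 7 of 9 members and in 76.1% of all genes.

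Normalization bears on how far each of the 4 can be read. With normexp background correction the HK-2 replicate difference of all genes shifted to a median of 0.99, and with the deposited log2 values to 0.72, against 0.06 for the scaled processed signal. BCL2 kept 2.24 and -1.85 under normexp, and BIK -1.25 and 1.08, so that both stayed past 1 in both lines, also relative to the shift. BCL2A1 gave 1.39 and -0.88, or 0.40 and -0.74 relative to the shift. BBC3 gave 0.71 and -2.02, and since 0.71 is below the median shift, its HK-2 difference turned to -0.28 relative to all genes. With the deposited log2 values BBC3 gave 1.32 in HK-2, or 0.59 relative to the shift. The array split of BBC3 in HK-2 was thus below 1 relative to the shift under both of these settings, and which step of the processing moved it was not tested. BCL2 and BIK stayed past 1 in both lines under each.

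**Figure D3:**
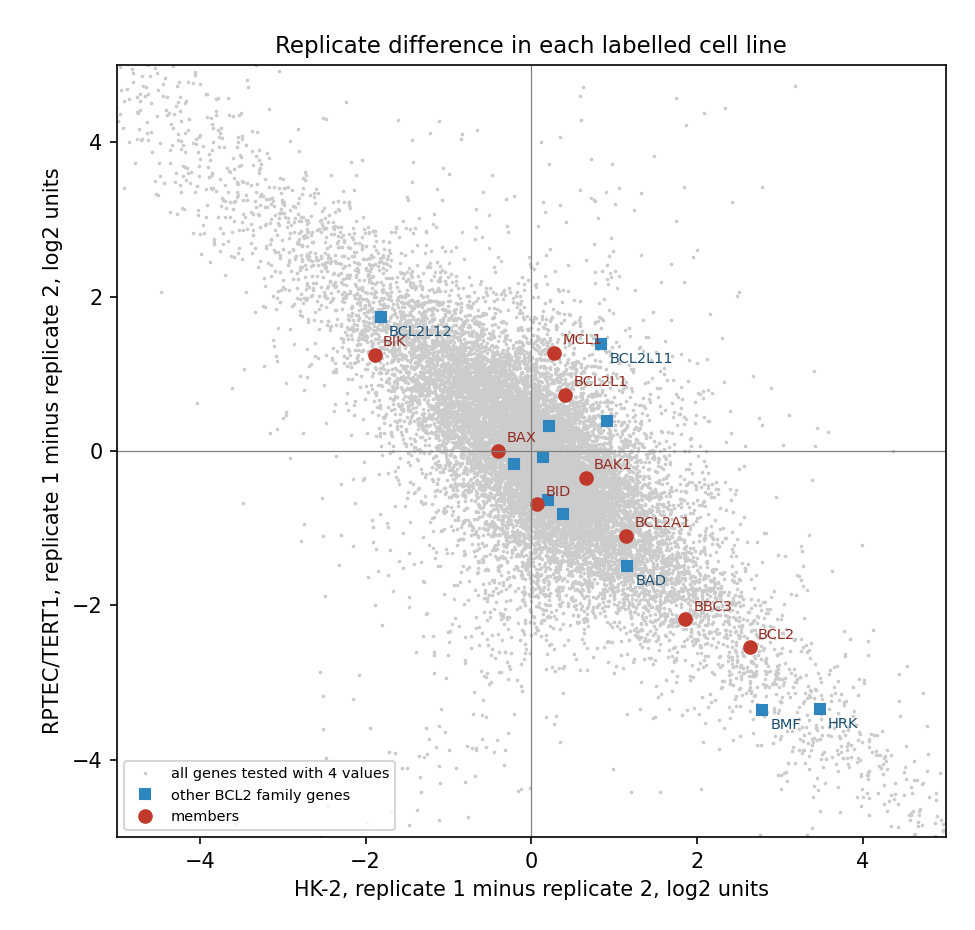
Replicate 1 minus replicate 2 in HK-2 (x axis) against the same in RPTEC/TERT1 (y axis), in log2 units, for all genes tested with 4 values (grey), the members (red circles) and other BCL2 family genes (blue squares, named where their range is wide). BCL2, BBC3 and BCL2A1 lie at the lower right with BMF, HRK and BAD, and BIK lies at the upper left with BCL2L12, along the slope of the grey cloud; 316 genes fall outside the axes.

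The array likeness held for the members on their own. Their median absolute difference was 0.21 for replicate 1 of HK-2 against replicate 2 of RPTEC/TERT1 (0.22 over all genes) and 0.41 for replicate 2 of HK-2 against replicate 1 of RPTEC/TERT1 (0.30 over all genes). Between arrays of the same label it was 0.66 for HK-2 and 0.93 for RPTEC/TERT1. Under normexp the first of these values rose to 0.57, above the 0.54 that set replicate 2 of HK-2 apart from replicate 2 of RPTEC/TERT1.

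The genes whose centred levels lay closest to those of BCL2, by the mean absolute difference over the 4 arrays among 16467 genes, were KLF5 at 0.02, TRPM4 at 0.05 and GCGR at 0.05. KLF5 read 0.02 and -2.60 in HK-2 and -2.78 and -0.19 in RPTEC/TERT1. GCGR was at the floor on the 2 low arrays. Among the members with a value on every array, which leaves out PMAIP1, BBC3 was closest to BCL2 on this scale, at 0.29 and rank 429. BIK was farthest, at 2.08 and rank 15048. These distances over 4 arrays are a description.

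The other genes of the family are given in the same order of arrays, HK-2 replicates 1 and 2 and then RPTEC/TERT1 replicates 1 and 2. Of 14 on the array, 11 were tested, 0 passed the test in either direction, and 4 had opposite replicate differences of at least 1, beside 23.8% of all genes. BMF, a BH3-only gene induced on loss of attachment, read -0.36, -3.14, -3.13 and 0.22. HRK, a BH3-only gene known from neurons, read -1.21, -4.69, -5.13 and -1.78, with 1 of its probes at the floor on the 2 low arrays. BAD, whose protein is held inactive by phosphorylation under growth factors, read 1.51, 0.36, 0.35 and 1.84. These 3 were high on the arrays on which BCL2 was high, a direction seen in 12.3% of all genes. BCL2L12 read 0.61, 2.43, 2.47 and 0.74 and ran with BIK, a direction seen in 11.4% of all genes. With normexp BMF, HRK and BCL2L12 kept both differences past 1, also relative to the shift, and BAD gave 0.25 in HK-2, below the shift.

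BCL2L11, which encodes the BH3-only protein BIM, averaged -0.02, -0.86, 0.64 and -0.75, and its 3 probes disagreed. A_33_P3251932 read 0.83, -1.33, 3.70 and -1.88, while A_24_P122921 read 0.53, 0.53, 0.10 and 0.94. BOK, an effector-like member, read 1.09, 0.70, 0.54 and 1.36, and BECN1, an autophagy protein that binds BCL2, read 1.62, 1.42, 1.28 and 1.92. The pro-survival gene BCL2L2 stayed between 0.51 and 0.91, the mitophagy receptor gene BNIP3L between 1.37 and 1.70, BCL2L13 between -2.85 and -2.57 and BCL2L15 between -3.83 and -2.66. For BNIP3L, BCL2L13 and BCL2L15 these are means of probes that differed in direction. BCL2L13 A_23_P102965 read -0.33, -1.18, -0.62 and -0.38, while A_24_P409494 read -2.89, -2.30, -1.94 and -2.66. BNIP3L A_33_P3396951 read 0.42, -0.36, 0.08 and 0.62, while A_33_P3268900 read 1.00, 1.85, 1.43 and 1.56. BCL2L10 and BCL2L14 were well above background on no array, and BNIP3 had a usable spot on RPTEC/TERT1 replicate 1 alone, at 6.51.

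The genes that act upstream and downstream of the family gave 0 calls in either direction in every list, over 9 or 10 genes tested per list and 7 for the turnover of MCL1. Opposite replicate differences of at least 1 were counted in 2 of 10 apoptosome and caspase genes, 2 of 9 IAP genes and their antagonists, 3 of 10 death receptor genes, 1 of 9 genes of p53 and its regulators, 6 of 10 NF-κB and survival genes, 1 of 7 MCL1 turnover genes and 4 of 10 stress and growth factor genes. These counts stand beside 23.8% of all genes. The lists overlap: BIRC3 is counted among both the IAP and the NF-κB genes, and CFLAR among both the death receptor and the NF-κB genes. All 6 of the NF-κB and survival list were high in replicate 1 of HK-2 and replicate 2 of RPTEC/TERT1, a direction seen in 12.3% of all genes. That count fell to 1 with normexp and 2 with the deposited log2 values, beside 11.1% of all genes in either direction, and relative to the median shift it was 0 and 1.

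Among these genes, TNFAIP3, the NF-κB feedback inhibitor A20, read 1.81 and -1.20 in HK-2 and -1.95 and 1.74 in RPTEC/TERT1. NFKB1 read 3.34, 1.18, 1.30 and 3.11, and the caspase inhibitor gene BIRC3 read 4.03, 2.91, 2.26 and 4.54. The death receptor genes FAS, at -0.07, -1.70, -1.84 and -0.17, and TNFRSF10A, at -1.06, -2.40, -2.84 and -0.66, had the same high arrays. On this scale all of these followed BCL2. With normexp the HK-2 replicate difference of NFKB1 was at the median shift, 1.00 against 0.99, and that of BIRC3 was -0.04, below it. Relative to that shift the HK-2 differences of FAS, TNFRSF10A and TNFAIP3 were 0.61, 0.86 and 0.84, so that 0 genes of the death receptor list and 0 of the NF-κB list kept opposite differences of at least 1.

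Several wide gaps in the lists ran the other way. BIRC5, which encodes survivin and is transcribed in dividing cells, read -2.98, 4.16, 3.97 and -1.79 in the same order of arrays. E2F1, a driver of S phase entry that can also induce BH3-only genes, was well above background on 2 arrays only, at 0.74 in replicate 2 of HK-2 and 0.84 in replicate 1 of RPTEC/TERT1, and lay at or below -4.91 on the others. TRIB3, a target of the integrated stress response, read 2.31, 5.75, 5.08 and 3.02. FOXO1, a transcription factor restrained by growth factors and able to induce BH3-only genes, ran with BCL2, at -0.35, -4.97, -4.84 and -0.82. CHEK2, a DNA damage kinase, read -3.66, -1.20, -1.34 and -3.67, though with normexp its HK-2 replicate difference turned from -2.47 to 0.69. CASP2, an initiator caspase, read 0.05, 1.17, 1.68 and -0.26.

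**Figure D4:**
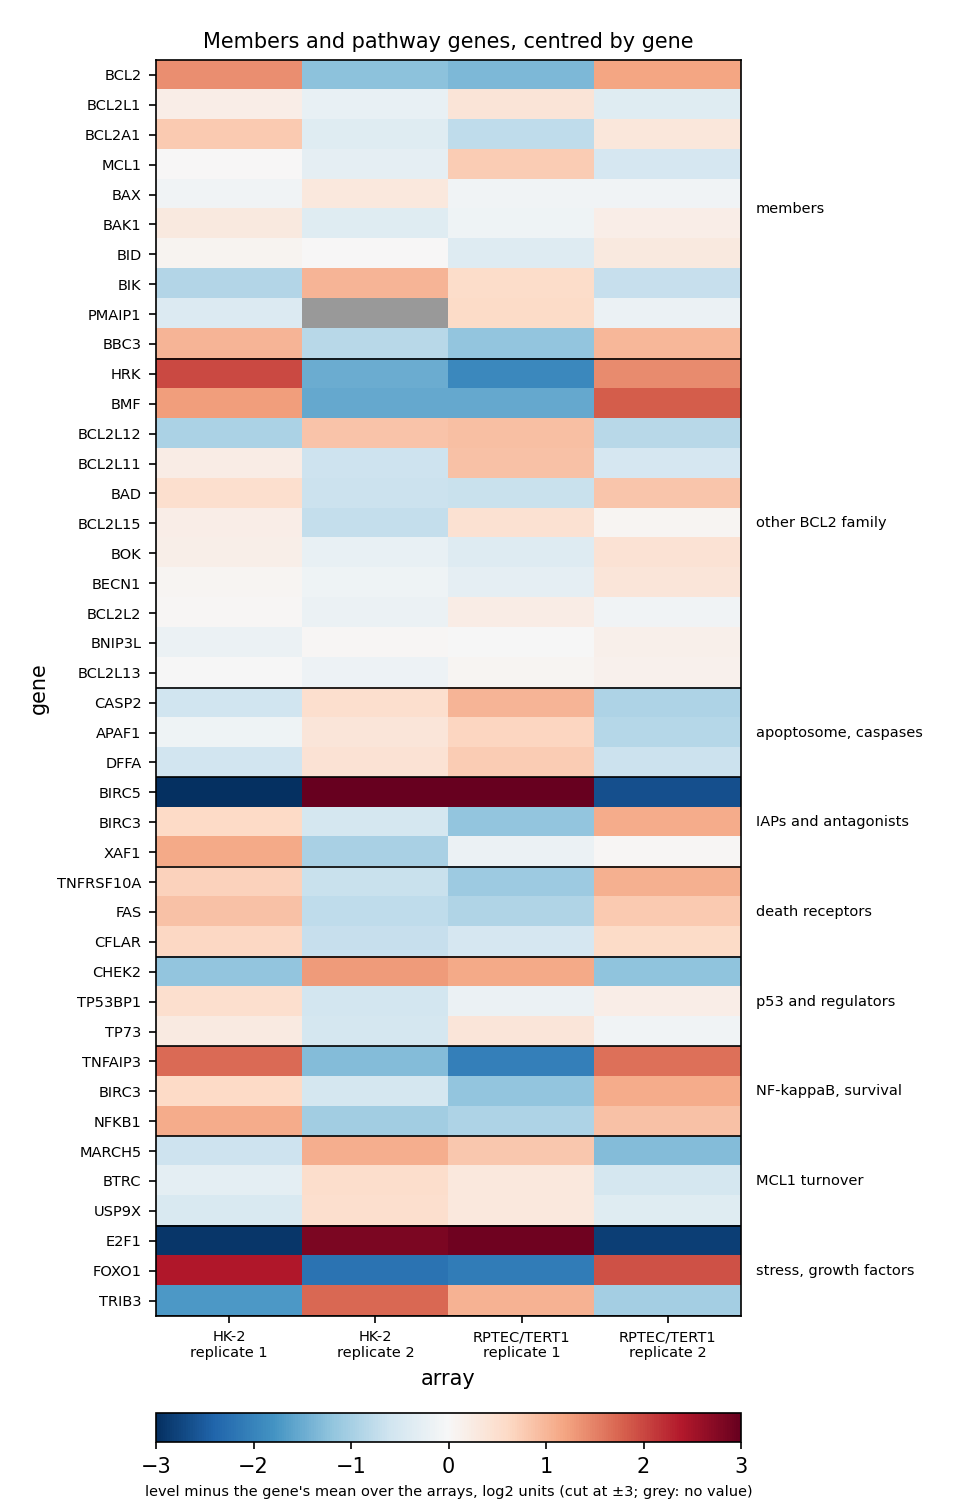
Level minus the mean of the gene over the arrays, in log2 units (colour, cut at 3 in either direction), for the members, other BCL2 family genes and at most 3 genes of widest range from each pathway list (rows) on the 4 arrays (columns), with grey for no value. In the outer columns, HK-2 replicate 1 and RPTEC/TERT1 replicate 2, BCL2, BBC3, HRK, BMF, TNFAIP3 and FOXO1 are red while BIK, BCL2L12, BIRC5 and E2F1 are blue, and BCL2L1, MCL1 and BCL2L11 do not follow this split.

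Promoters were read from RefSeq for 8 of the 10 members, as the 250 bases before each start on GRCh38.p14, since several members shared high arrays. Capitals mark a motif found. The promoter of BCL2 is shown with that of BBC3, the ranked member closest to it in level on the main scale, and that of BAX because it held the most matches.
BCL2, chr18:63319770-63320019, minus strand: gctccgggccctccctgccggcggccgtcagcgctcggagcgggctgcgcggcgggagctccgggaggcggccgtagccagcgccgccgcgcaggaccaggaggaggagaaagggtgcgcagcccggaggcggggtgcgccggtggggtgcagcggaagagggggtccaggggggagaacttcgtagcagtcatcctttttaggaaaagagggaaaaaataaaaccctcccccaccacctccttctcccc
BBC3, chr19:47232668-47232917, minus strand: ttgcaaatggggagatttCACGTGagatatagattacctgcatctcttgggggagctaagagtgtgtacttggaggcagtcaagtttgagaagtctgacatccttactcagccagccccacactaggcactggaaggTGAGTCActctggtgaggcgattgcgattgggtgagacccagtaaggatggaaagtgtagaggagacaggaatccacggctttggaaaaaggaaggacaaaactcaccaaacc
BAX, chr19:48954625-48954874, plus strand: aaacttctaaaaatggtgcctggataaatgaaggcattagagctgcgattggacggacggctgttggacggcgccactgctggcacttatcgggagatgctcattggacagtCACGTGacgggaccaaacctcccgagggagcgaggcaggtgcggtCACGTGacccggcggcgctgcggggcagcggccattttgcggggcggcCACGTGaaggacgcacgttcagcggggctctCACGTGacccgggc

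The E-box core CACGTG, which reads the same on both strands, occurred 4 times before BAX, once before BBC3 and in 2 of the 5 BID promoters, and in 6.34% of 35116 promoters. These 2 BID windows overlap and hold the same site. The AP-1 motif TGAGTCA, searched on both strands, occurred before BBC3 and in 4.20% of promoters. The p53 decamer was found before BAK1 and in 5.57% of promoters. The NF-κB consensus (5.21% of promoters), the E2F motifs TTTCCCGC (1.39%) and TTTGGCGC (0.550%) and the FOXO motif GTAAACA (2.98%) matched in none of the members' windows, BCL2A1 included. No base lay in a pair of motifs. The window before BCL2 had 70.0% GC, that before BCL2A1 38.8% and that before BBC3 49.2%, beside a median of 58.0% over all promoters. A match or its absence is a property of these letters and says nothing of binding.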

How the data were processed

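RNA of 2 HK-2 and 2 RPTEC/TERT1 cultures was hybridised in 1 colour (Cy3) to Agilent human gene expression arrays. The authors deposited spot intensities from Feature Extraction 9.5.3.1, with background subtracted and no scaling between arrays, and log2 values of the same spots, made in a way the labels and methods do not state (scale and direction follow the spot signals, centring stays unknown). The labels name the RNeasy kit and the methods another. Groups, doses and times came from the labels.

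Control spots and outlier spots were left out. Each array was scaled to its own 75th percentile of processed signal, with a floor at 0.0242 of it (log2 of -5.37). This floor was set from the dimmest scaled spots well above background, at the highest of the 4 arrays. Spots were averaged per probe and probes per gene, over those above background on at least 1 array, leaving out a probe with a missing array where another was complete. The contrast of HK-2 and RPTEC/TERT1 was fitted in limma 3.58.1 (lmFit, eBayes, R 4.3.3) over 16708 genes well above background on at least 2 arrays, 240 of them with a missing array, at a Benjamini-Hochberg adjusted p of 0.05. An exact permutation test of 2 against 2 cannot go below p = 0.333. The fit was tested on simulated data with known changes.

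Members and gene lists were chosen with earlier results of these data known. Named genes are all members, the other family genes, at most 3 genes of widest range per other list, the 3 genes closest to the member of widest range, and marker genes. Alternatives were normexp on mean and background signals (offset 50), the deposited log2 values, quantile normalization, filters on dim genes, the brightest probe, each probe alone, outlier spots kept, the replicate number as a block and each array left out. The sequence, position and levels of 1 BCL2 probe are not reported here, though it enters the mean of the gene. Probe names are those of the array design, and promoters are from RefSeq (GRCh38.p14), where MCL1 and BIK were not matched. Array slides and arrays cannot be told apart.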

Additional observations from a re-analysis of the deposited data

Results flagged for a closer look

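In 4 members the replicate difference had opposite signs in HK-2 and RPTEC/TERT1 and was at least 1 log2 unit in both. Whether the replicate difference itself differed between the lines was not tested. Replicate 1 minus replicate 2 was 2.63 for BCL2 in HK-2 and -2.54 in RPTEC/TERT1. It was 1.14 and -1.10 for BCL2A1, -1.89 and 1.25 for BIK, and 1.85 and -2.18 for BBC3. The same was counted in 23.8% of all genes, and the arrays were most alike across the labels. Whether arrays or labels were exchanged was not tested.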

How the results depend on the processing

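The number of genes and of members called between HK-2 and RPTEC/TERT1 was 0 under every setting run, with between 4 and 247 genes at an unadjusted p under 0.05 in limma. With the replicate number as a block, 0 genes passed and 5 had an unadjusted p under 0.05. The numbers share a scan day but deviated against each other (correlation -0.81), and with the crossed pairing, chosen after seeing the data, 0 genes passed and 183 had an unadjusted p under 0.05.

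Among the recomputed member differences, 118 kept their direction and 22 turned, none past the threshold on either side, and the cause was not tested. The 118 include settings that could not move a difference. These are the filters on dim genes, the blocks, the probe settings for members read by 1 probe, and outlier spots kept for members without such spots. The count is therefore no measure of how stable a direction is. With normexp, HK-2 minus RPTEC/TERT1 turned to 0.083 for BCL2L1, -0.51 for BID and -0.31 for BBC3, beside a shift of all genes of 0.36. Directions were not taken relative to that shift. The positive values that BCL2 (0.094) and BAX (0.23) kept lay below it, and those of BCL2A1 (0.39) and BIK (0.43) above it. With the deposited log2 values it turned to 0.0060 for BCL2L1 and -0.12 for BID, beside a shift of 0.20. BAX turned to -0.038 with its brightest probe or with A_23_P208706 alone, and PMAIP1 to 0.14 with outlier spots kept. Leaving out each array in turn gave -1.16 to 1.48 for BCL2, -0.39 to 0.34 for BCL2L1, -0.14 to 1.00 for BCL2A1, -0.88 to 0.39 for MCL1, 0.01 to 0.41 for BAX, -0.40 to 0.25 for BAK1, -0.26 to 0.42 for BID, -0.80 to 1.09 for BIK, -0.98 to -0.21 for PMAIP1 and -0.91 to 1.27 for BBC3, so that 8 of the 10 differences changed sign with 1 array. PMAIP1 gave no value without HK-2 replicate 1. A line left with 1 array was assumed to vary like the other.

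The members with opposite replicate differences of at least 1 were 4 under the main setting, 2 with normexp (BCL2 and BIK) and 3 with the deposited log2 values (BCL2, BIK and BBC3), beside 11.1% of all genes under either. Relative to the median shift of all genes they were 3 with normexp (BCL2, BIK and MCL1), beside 10.9% of all genes, and 2 with the deposited log2 values (BCL2 and BIK), beside 11% of all genes. The dim probes of BCL2A1 and BAX were brighter than nearly all negative control spots on each array. On HK-2 replicate 1, at 90.9 and 75.9 units, both were below the brightest control spot, at 171 units. Nearly all control spots on that array read at most 5.15 units. The dim BCL2A1 probe was also below the brightest control spot on RPTEC/TERT1 replicate 1. Members read by 1 spot per array are limited by that spot.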
